A study of Mus musculus with 7 samples.

Results

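Open chromatin was described at 30 genes of the tumour necrosis factor (TNF) ligand and receptor superfamily in RAW264.7 cells, out of 21887 mouse protein-coding genes. The members were all protein-coding genes on mm10 whose symbol starts with Tnfsf (11 ligands) or Tnfrsf (19 receptors) followed by a digit, with Tnfrsf11a, the receptor of RANKL, left out. A peak belonged to a member when its midpoint lay inside the gene, or within 100 kb of it with that member as the nearest protein-coding gene. This gave 1555 of the 975394 deposited peaks, and 463 of 344401 regions once overlapping peaks of all libraries had been joined. Ligands held 230 of these regions and receptors 233, and no region was shared by members. Of the member peaks 38 also lay inside another protein-coding gene: 30 of 34 at Tnfsf12, 6 of 6 at Tnfsf13 and 2 of 7 at Tnfrsf12a. At the edge of the window, 10 peaks lay 90 to 100 kb from a member (8 regions at Tnfsf11, Tnfsf18 and Tnfrsf11b) and 4 lay 100 to 110 kb away (1 region at Tnfsf18) and were not used.

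ATAC-seq uses a transposase to insert sequencing adapters into accessible DNA, so that peaks mark open chromatin. RAW264.7 is an established mouse macrophage-like line that can form osteoclasts, the cells that resorb bone, when given RANKL. The labels name the line and a monocyte-derived cell type, and give bone marrow as the source. Untreated cells (2 libraries) were compared with cells given RANKL at 50 ng/ml (2 libraries), RANKL with the BET inhibitor I-BET at 500 nM (RANKL+I-BET, 2 libraries) and I-BET at 500 nM alone (1 library, labelled replicate 2). Treatments lasted 4 h, and each library started from 50000 cells. The labels do not say that replicates came from separate cultures, so any spread between them may be technical, and the single I-BET library has no replicate. All libraries come from 1 cell line.

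The ligands of this superfamily are mostly trimeric proteins on the surface of immune cells, which bind receptors with cysteine-rich repeats. Receptors with a death domain can start cell death, and most others recruit TRAF adaptors and pass their signal to NF-kappa B and AP-1. RANKL is itself a member, encoded by Tnfsf11, and its soluble decoy receptor osteoprotegerin is encoded by Tnfrsf11b. BET proteins read acetylated histones, and BET inhibitors displace them from chromatin.

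The 7 peak lists held 117175 to 166369 peaks, of which 25.3% to 74.0% had a -log10 q of at least 5. Read depth is unknown, since the lists give calls and not reads. Untreated replicate 1 stood apart from the other libraries. It had the lowest share of peaks at that threshold, and 34.6% of the member regions it called were called in no other library, against 5.17% to 21.1% in the other 6. Over all genes the same share was 41.3% in untreated replicate 1 and 8.9% to 24.9% in the others. Gene starts of all 8 macrophage markers checked (among them Adgre1, Cd68 and Spi1) were called in all 7 libraries. Of 4 T lymphocyte markers Cd5 and Lck were called in all 7, Cd3g in 1 and Cd3e in none. Of 4 fibroblast and osteoblast markers only Col1a1 was called in all 7.

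Most member regions were not shared by all libraries. Called in all 7 were 78 of the 463 (16.8%, against 13.3% of 314072 regions at any protein-coding gene), and called in 1 library alone were 221 (47.7%, against 54.2%). Called in 2, 3, 4, 5 and 6 libraries were 53, 27, 19, 31 and 34 (11.4%, 5.83%, 4.1%, 6.7% and 7.34%, against 12.2%, 6.37%, 4.6%, 4.0% and 5.39%). The shared regions were longer, with a median of 1250 bp against 187 bp for regions of 1 library. They were also stronger within their lists: a median of 16.0% of the list had a larger -log10 p, against 74.4% for regions of 1 library. Fold and -log10 p are the authors' own values for each peak. Those of different lists are given side by side as descriptions and are not a measure of change. Member regions called were 182 and 174 in the untreated libraries (39.3% and 37.6%, against 36.6% and 31.4% over all genes), 228 and 193 with RANKL (49.2% and 41.7%, against 40.3% and 35.9%), 191 and 238 with RANKL+I-BET (41.3% and 51.4%, against 32.2% and 48.5%) and 183 with I-BET (39.5%, against 36.4%). The share at members was above that of all genes in each library, and RANKL replicate 2 and RANKL+I-BET replicate 1 nearly coincided.

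Regions outside the gene body were common at ligands, where 23.9% of regions lay inside the gene, against 54.5% at receptors and 63.0% at all genes.

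The starts of 17 members had a peak within 1 kb in all 7 libraries, those of 11 members in some libraries and those of 2 in none. The reference gave a start for 23 members, and either gene end was used for the other 7. Among the 23, 12 (52.2%, against 53.5% of 17492 genes) were called in all 7 libraries, 9 (39.1%, against 19.1%) in 1 to 6 and 2 (8.7%, against 27.3%) in none.

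Among the receptors, Tnfrsf12a, the receptor of the cytokine TWEAK, had the most prominent start in the 6 untreated and RANKL-treated libraries. Only 1.37% to 2.1% of the peaks of those libraries had a larger -log10 p than the Tnfrsf12a peak. In the I-BET library it was 7.2%, and Tnfrsf23 (3.17%), Tnfrsf22 (5.27%) and Tnfrsf1b (5.53%) ranked ahead of it. Its fold was 60.9 and 62.2 in the untreated libraries, 51.6 and 56.8 with RANKL, 71.2 and 48.1 with RANKL+I-BET and 19.9 with I-BET. A single region of 5123 bp covered the whole gene.

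Both receptors of TNF itself were open at their starts in every library. At Tnfrsf1a, which encodes the death domain receptor TNFR1, the peak at the start had a fold of 15.8 and 27.4 in untreated cells, 15.4 and 23.0 with RANKL, 12.2 and 21.7 with RANKL+I-BET and 10.4 with I-BET. It lay in the longest region of any member, 6988 bp. At Tnfrsf1b, which encodes TNFR2, the folds were 19.5 and 38.7, 25.8 and 49.0, 19.5 and 40.8, and 22.7 in the same order. Other receptors called within 1 kb of their start in all 7 libraries were Tnfrsf14, Tnfrsf18, Tnfrsf23 and Tnfrsf25, and, at a gene end, Tnfrsf10b, Tnfrsf22 and Tnfrsf26.

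Among the ligands, Tnfsf9 (the CD137 ligand), Tnfsf10 (TRAIL, which binds death receptors), Tnfsf12 (TWEAK), Tnfsf13 (APRIL), Tnfsf13b (BAFF, a survival factor of B lymphocytes), Tnfsf14 (LIGHT) and Tnfsf18 (the GITR ligand) were called in all 7 libraries. The reference gives no start for Tnfsf9 and Tnfsf12, so these were called at a gene end. The peak counted for Tnfsf12 was the same one as for Tnfsf13, its neighbour. At Tnfsf10, 86.6% of the peaks in untreated replicate 1 had a larger -log10 p than the peak at the start, and 19.7% to 35.6% in the other 6 libraries.

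The start of Tnfsf11, the gene of RANKL, was called in untreated replicate 1 (fold 3.38) and in the I-BET library (fold 2.84) and in no library that had received RANKL. Untreated replicate 2 did not call it either, so the untreated replicates disagreed. A gene end of Tnfrsf11b was called in the same 2 libraries, with folds of 3.1 and 3.31. The -log10 p of these 4 peaks was 2.99 to 4.82.

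Tnfrsf13c, the receptor of BAFF, was the only member whose start was called in both RANKL libraries (fold 2.34 and 3.94) and in neither untreated one. Further calls came from RANKL+I-BET replicate 2 (fold 2.76) and I-BET alone (fold 3.31), with none in RANKL+I-BET replicate 1. This RANKL-only call was lost (0 regions) with a -log10 q of at least 5, in lists of equal length, and where peaks had to cover 50% of a region. Tnfrsf9, the T cell costimulator CD137, was called in the 6 libraries other than I-BET, with folds of 4.79 and 9.6 in untreated cells, 4.69 and 12.2 with RANKL, and 3.46 and 11.9 with RANKL+I-BET. Tnfsf15 (TL1A) and, at a gene end, Tnfsf4 (the OX40 ligand) were likewise called in all libraries but I-BET.

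The other varying starts separated no pair of treatments with 2 libraries each. Tnfrsf17 (BCMA), Tnfrsf4 (OX40) and Tnfrsf8 (CD30) were called in all libraries but untreated replicate 1. Tnfrsf21 (death receptor DR6) was not called in untreated replicate 1 or RANKL+I-BET replicate 1. Tnfrsf19, called TROY, was called in both untreated libraries, RANKL replicate 2 and RANKL+I-BET replicate 2. Tnfsf8 (the CD30 ligand) and Tnfrsf13b (TACI) had no peak within 1 kb of their start in any library.

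**Figure D1:**
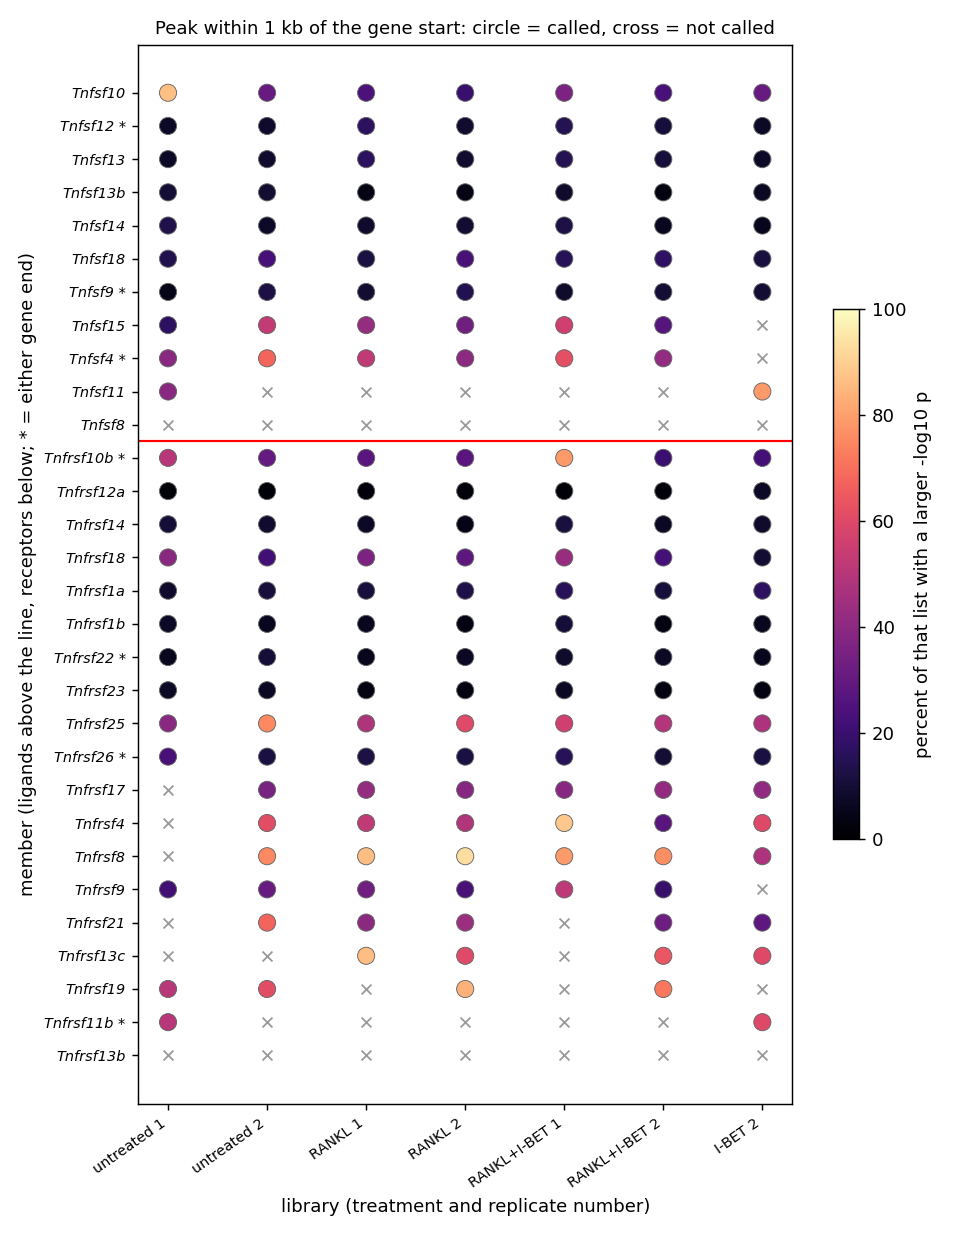
Calls within 1 kb of each member's start (rows; ligands above the line, receptors below, * where either gene end was used) in each library (columns). A circle is a call, coloured by the percent of that list with a larger -log10 p (dark is a strong peak), and a cross is no call. Rows of dark circles such as Tnfrsf12a and Tnfsf13b are called in all 7 libraries, and the Tnfsf11 and Tnfrsf11b rows hold circles for untreated 1 and I-BET 2 alone.

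Promoter sequences are shown for Tnfrsf9, Tnfrsf8, Tnfrsf13c and Tnfsf11, whose starts varied between libraries, and for Tnfsf18, whose start was called in all. Each runs 5′ to 3′ on the strand of the gene from 250 bases before the start to 50 after it, taken from RefSeq on GRCm38.p6 (mm10). Capitals mark matches, on either strand, to the kappa B motif bound by NF-kappa B, to TGANTCA bound by AP-1 and to GAGGAAGT bound by PU.1. The windows lie at chr4:150927749-150928048 (plus strand, the second of the starts listed for Tnfrsf9), chr4:145315115-145315414 (minus strand), chr15:82224331-82224630 (minus strand), chr14:78307994-78308293 (minus strand) and chr1:161494407-161494706 (plus strand), in the order shown.
Tnfrsf9: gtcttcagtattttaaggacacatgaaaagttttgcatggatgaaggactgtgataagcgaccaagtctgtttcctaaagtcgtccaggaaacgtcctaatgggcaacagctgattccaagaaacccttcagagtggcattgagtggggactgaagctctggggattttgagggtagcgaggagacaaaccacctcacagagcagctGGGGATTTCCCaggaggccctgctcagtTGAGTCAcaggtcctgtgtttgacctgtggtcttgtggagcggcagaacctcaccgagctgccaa
Tnfrsf8: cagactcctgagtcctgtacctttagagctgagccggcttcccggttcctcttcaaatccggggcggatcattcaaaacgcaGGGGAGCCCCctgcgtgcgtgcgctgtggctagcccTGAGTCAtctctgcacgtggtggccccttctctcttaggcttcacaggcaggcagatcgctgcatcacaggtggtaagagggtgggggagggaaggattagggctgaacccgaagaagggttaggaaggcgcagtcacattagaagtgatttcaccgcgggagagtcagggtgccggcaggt
Tnfrsf13c: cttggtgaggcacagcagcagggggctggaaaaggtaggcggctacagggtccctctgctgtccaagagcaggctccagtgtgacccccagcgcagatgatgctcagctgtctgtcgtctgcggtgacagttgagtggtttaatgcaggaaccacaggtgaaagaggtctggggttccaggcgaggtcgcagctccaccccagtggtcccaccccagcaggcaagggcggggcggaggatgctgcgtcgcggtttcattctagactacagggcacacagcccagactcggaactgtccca
Tnfsf11: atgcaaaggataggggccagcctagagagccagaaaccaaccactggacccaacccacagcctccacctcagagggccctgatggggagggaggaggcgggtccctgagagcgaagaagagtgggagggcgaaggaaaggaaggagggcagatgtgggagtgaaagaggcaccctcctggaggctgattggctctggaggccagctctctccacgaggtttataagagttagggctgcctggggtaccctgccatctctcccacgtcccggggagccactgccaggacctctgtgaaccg
Tnfsf18: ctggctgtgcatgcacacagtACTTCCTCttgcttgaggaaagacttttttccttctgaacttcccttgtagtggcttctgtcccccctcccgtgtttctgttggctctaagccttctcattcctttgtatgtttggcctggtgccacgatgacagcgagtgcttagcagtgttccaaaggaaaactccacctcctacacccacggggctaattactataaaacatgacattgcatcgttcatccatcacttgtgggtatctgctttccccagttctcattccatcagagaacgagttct

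Tnfrsf9 and Tnfrsf8, both on chromosome 4, held the only kappa B matches among 27 member promoter windows (2 windows, where 4.81% of 21263 promoters had a match). In Tnfrsf9 a pair of kappa B matches overlapped each other at positions -43 and -42 from the start, and an AP-1 match began at -15. In Tnfrsf8 the kappa B match began at -168 and the AP-1 match at -132. Matches of different motifs did not overlap each other.

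The Tnfrsf9 window was called in the 6 libraries other than I-BET, and the window at the other start of that gene in none. The -log10 p of its peak was 2.89 and 21.8 in untreated cells, 10.8 and 32.5 with RANKL, and 6.07 and 125 with RANKL+I-BET. The Tnfrsf8 window was called in RANKL replicate 1, RANKL+I-BET replicate 2 and I-BET, with -log10 p of 2.93, 5.88 and 4.66. The Tnfrsf13c window, with none of the motifs, was called in RANKL replicate 2, RANKL+I-BET replicate 2 and I-BET. Of the Tnfrsf25 windows 1 was called in 3 libraries (-log10 p of 2.45 to 3.11) and the other in none. No library called the Tnfrsf4 window. Of the Tnfrsf19 windows 1 was called in RANKL replicate 2 and RANKL+I-BET replicate 2, and the other in none. The other calls within 1 kb of these 3 genes' starts came from peaks beside the windows.

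AP-1 matches stood in 6 of the 27 windows (6.99% of all promoters had one): Tnfrsf8, Tnfrsf9, Tnfsf13, Tnfsf14 and both overlapping windows of Tnfsf13b, which share 1 site. Tnfsf18 had the only PU.1 match (3.13% of all promoters had one). A match describes the letters only and does not show binding. Member windows called in all 7 libraries had a median GC content of 55.3% and 6 CG dinucleotides (11 windows), against 61.7% and 22 in the 10435 windows of all genes called in all 7. GC content was 51.0% in the Tnfrsf9 window and 48.0% in the Tnfsf18 window.

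Peaks per member are shown for the full lists. Tnfrsf8 had the most, 165 over the 7 libraries, followed by Tnfsf18 (163), Tnfrsf1b (132) and Tnfsf4 (115). Tnfrsf8 had 19 and 21 peaks in untreated cells, 27 and 23 with RANKL, 23 and 27 with RANKL+I-BET and 25 with I-BET. Both untreated values lay below the other 5. Tnfrsf1b, its neighbour on chromosome 4, had 16 and 16, then 21 and 17, then 27 and 17, and 18 with I-BET. There too the untreated libraries were lowest, by 1 peak. In bases under peaks untreated replicate 1 was lowest at both genes (9548 at Tnfrsf8 and 9735 at Tnfrsf1b). Untreated replicate 2, with 11358 and 13093, lay above the I-BET library, with 11046 and 12038. With all lists cut to the same length the groups overlapped at both genes: Tnfrsf8 had 17 and 21 peaks in untreated cells and 22 and 17 with RANKL, and Tnfrsf1b had 16 and 16, and 19 and 16.

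Tnfsf18 had 25 and 14 peaks in untreated cells, 36 and 16 with RANKL, 29 and 22 with RANKL+I-BET and 21 with I-BET. Replicate 1 exceeded replicate 2 in number of peaks in all 3 treatments with both. In bases under peaks it did so in untreated cells (9699 and 8068) and with RANKL (16485 and 8888). With RANKL+I-BET, replicate 2 was higher in bases (14339 and 15656). Tnfsf4, which lies beside Tnfsf18 on chromosome 1, had 18 and 12, 27 and 11, 18 and 17, and 12 peaks. At both ligands the groups overlapped.

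Tnfsf11 had 9 and 4 peaks in untreated cells, 4 and 4 with RANKL, 1 and 7 with RANKL+I-BET and 9 with I-BET. None of its 25 regions was called in all 7 libraries. The most widely called, chr14:78352717-78353386, lay 44674 bp upstream of the start and was missing only from RANKL+I-BET replicate 1. Tnfrsf11b had 1 and 0, 3 and 0, 1 and 0, and 2 peaks, and each of its 7 regions was called in 1 library alone.

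Tnfrsf1a had 7 and 9 peaks in untreated cells, 8 and 7 with RANKL, 8 and 6 with RANKL+I-BET and 8 with I-BET, so the groups overlapped. Tnfrsf9 had 10 and 10, 8 and 14, 8 and 13, and 5, the I-BET library being the lowest. Tnfrsf19 had 12 peaks in untreated replicate 1 and 1 in untreated replicate 2, then 3 and 3, 3 and 5, and 3. Tnfsf8 had 6 and 14, 13 and 14, 10 and 19, and 12.

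Of the other members with a start or region that separated libraries, Tnfrsf21 had 5 and 7 peaks in untreated cells, 14 and 8 with RANKL, 8 and 9 with RANKL+I-BET and 10 with I-BET. Tnfrsf17 had 5 and 7, 8 and 7, 6 and 8, and 6. Tnfrsf13b had 5 and 7, 5 and 9, 7 and 13, and 7, with RANKL+I-BET replicate 2 highest. Tnfrsf13c had 3 and 5, 5 and 5, 5 and 4, and 7.
Among the ligands of that kind, Tnfsf14 had 7 and 8, 8 and 12, 9 and 10, and 9, the untreated libraries being lowest or tied. Tnfsf15 had 3 and 4, 4 and 6, 4 and 8, and 4. Tnfrsf4 stayed between 2 and 3 peaks in all 7 libraries. Across all libraries Tnfrsf14, which encodes the receptor of LIGHT, had 8 to 13 peaks, Tnfsf9 6 to 11, Tnfsf10 5 to 10, Tnfsf13b 5 to 7, Tnfsf12 3 to 7, Tnfrsf26 4 to 7, and the remaining members 0 to 4.

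**Figure D2:**
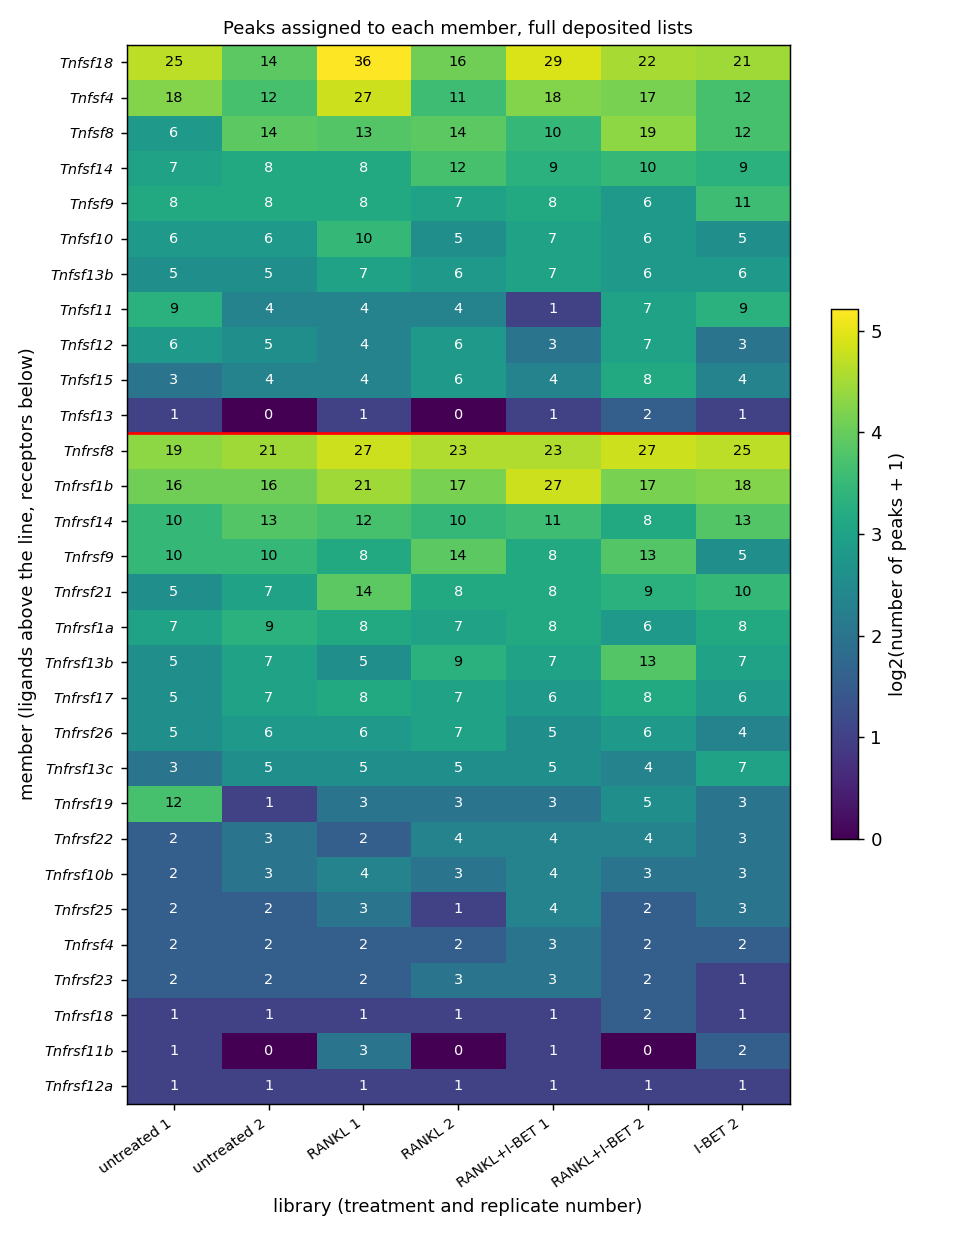
Number of peaks assigned to each member (rows; ligands above the line, receptors below) in each full deposited list (columns), coloured by log2(number of peaks + 1). Tnfrsf8 and Tnfrsf1b have their lowest numbers of peaks in the untreated libraries, an order that bases under peaks did not keep. Tnfsf18 ranges from 14 to 36 with overlapping groups.

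A fit across all genes asked whether peaks per gene differed between treatments. It used limma on log2(peaks + 1) with every list cut to 117175 peaks and Benjamini-Hochberg adjustment over 16513 genes with a mean of at least 1 peak, 28 of them members (Tnfsf13 and Tnfrsf11b were too low). At an adjusted p under 0.05, limma called 0 genes (0.0%) and so 0 members in RANKL minus untreated, RANKL+I-BET minus RANKL, RANKL+I-BET minus untreated and I-BET minus untreated. At an unadjusted p under 0.05 it listed 879, 373, 865 and 948 genes in that order. Of these 0, 1, 0 and 0 were members.

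That member was Tnfrsf25, which encodes death receptor DR3. It had 2 and 2 peaks in the shortened lists of untreated cells, 1 and 1 with RANKL, 4 and 2 with RANKL+I-BET and 2 with I-BET. The difference RANKL+I-BET minus RANKL was 0.95 (SE 0.28) on the log2(peaks + 1) scale, with an unadjusted p of 0.025 and a limma adjusted p of 1. It was 0.45 in the full lists, where RANKL had 3 and 1 peaks, and 0.58 when peaks with equal values were ordered by position. Without RANKL+I-BET replicate 1 it was 0.58, and without replicate 2 it was 1.32.

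Tnfrsf9 differed by 0.36 (SE 0.35) and Tnfsf8 by 0.45 (SE 0.48) in RANKL minus untreated, within about 1 standard error. The Tnfrsf9 value was 0.03 without untreated replicate 1, 0.04 without RANKL replicate 2, 0.68 without untreated replicate 2, 0.67 without RANKL replicate 1 and 0.08 in the full lists. Without untreated replicate 1 the Tnfsf8 value was -0.1, and without untreated replicate 2 it was 1.0. Tnfsf12 differed by -0.42 (SE 0.20) in RANKL+I-BET minus untreated, with a limma adjusted p of 0.883, but by 0.16 among peaks with a -log10 q of at least 5 and by 0.25 when bases under peaks were counted. These 4 genes were named for this scale after their values had been seen.

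Regions were then sorted by calls in both libraries of 1 treatment and neither of another, without a test. Exchanging the labels of 2 libraries against 2 allows no two-sided p below 0.333. Replicates agreed on a minority of calls in untreated cells. Of the member regions called in either replicate, both called 35.4% of 263 in untreated cells (30.4% over all genes), 49.8% of 281 with RANKL (46.8%) and 52.7% of 281 with RANKL+I-BET (43.3%). Peak calls do not show how far a region opened or closed if both treatments called it.

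RANKL libraries both called, and untreated libraries both lacked, 11 of 369 member regions (2.98%, against 3.3% of regions at all genes). The reverse held for 2 (0.542%, against 0.785%). Of the regions that varied among these libraries, the RANKL-only share was 3.86% at members and 4.08% over all genes. With a -log10 q of at least 5 it was 10.1% (10 regions) and 6.48%. That threshold kept 25.3% and 61.3% of peaks in the untreated lists and 44.6% and 55.6% in the RANKL lists. The shares were 3.48% and 3.52% in lists of equal length, and 3.82% and 4.08% within 50 kb. Inside gene bodies they were 3.81% and 3.91%, and with 50% of a region covered 5.25% and 4.1%. Called in 1 library of each treatment were 39 (10.6%, against 8.67%), and in all 4 libraries 84 (22.8%, against 19.1%). The split of 11 against 2 depended on both untreated libraries: 13 regions were RANKL only and 15 untreated only without replicate 1, and 54 and 75 without replicate 2. The counts were 40 and 3 without RANKL replicate 1 and 77 and 8 without RANKL replicate 2. The 11 regions lay at 9 members, 3 at ligands and 8 at receptors.

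**Figure D3:**
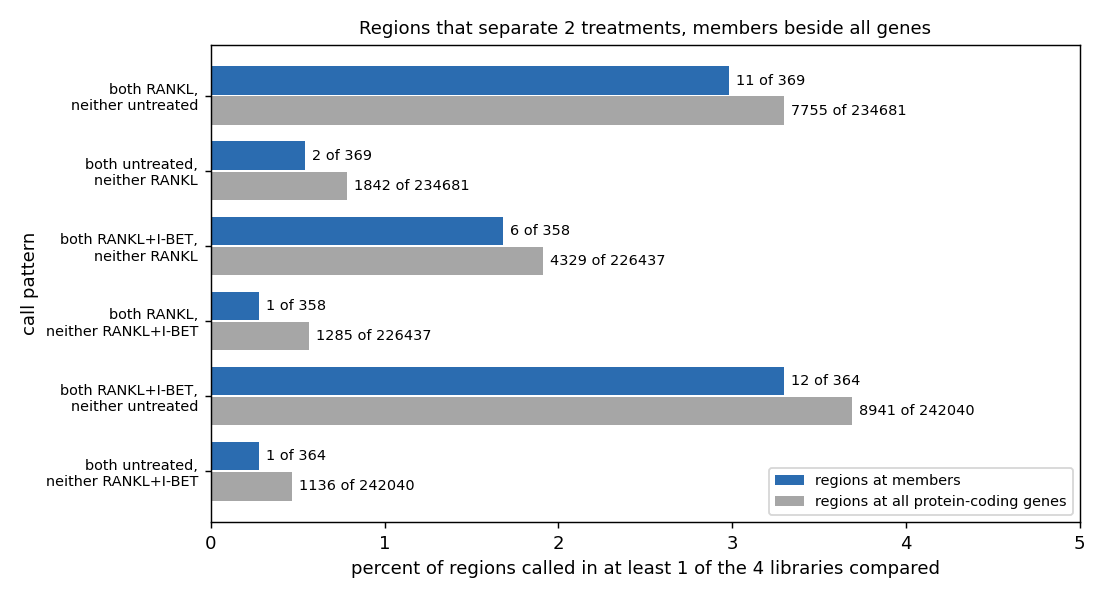
Percent of regions, out of those called in at least 1 of the 4 libraries compared, that were called in both libraries of 1 treatment and neither of the other (bars for members in blue and for all protein-coding genes in grey, with counts). The member bar is shorter than the all-gene bar in each pattern, such as 2.98% and 3.3% for RANKL only against untreated, and 0.279% (1 region) and 0.567% for RANKL only against RANKL+I-BET.

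Tnfrsf9 had 2 RANKL-only regions inside the gene. The first, chr4:150924121-150924660, lies 3339 bp upstream of the start with the kappa B matches shown above. Its -log10 p reached 9.23 and 8.29 in the RANKL libraries and 20.6 in RANKL+I-BET replicate 2, and the other 4 libraries had no call. The second, chr4:150933741-150934301, lies 5742 bp downstream of that start, with values of 4.56 and 13.0 with RANKL, 43.9 in RANKL+I-BET replicate 2 and 4.66 with I-BET. RANKL+I-BET replicate 1 called neither of them. With a -log10 q of at least 5 the RANKL-only count at Tnfrsf9 was 1.

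One more Tnfrsf9 region, chr4:150962162-150962587, was called in both RANKL+I-BET libraries (-log10 p of 6.73 and 14.4) and in untreated replicate 2 (7.16), and in neither RANKL library.

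**Figure D4:**
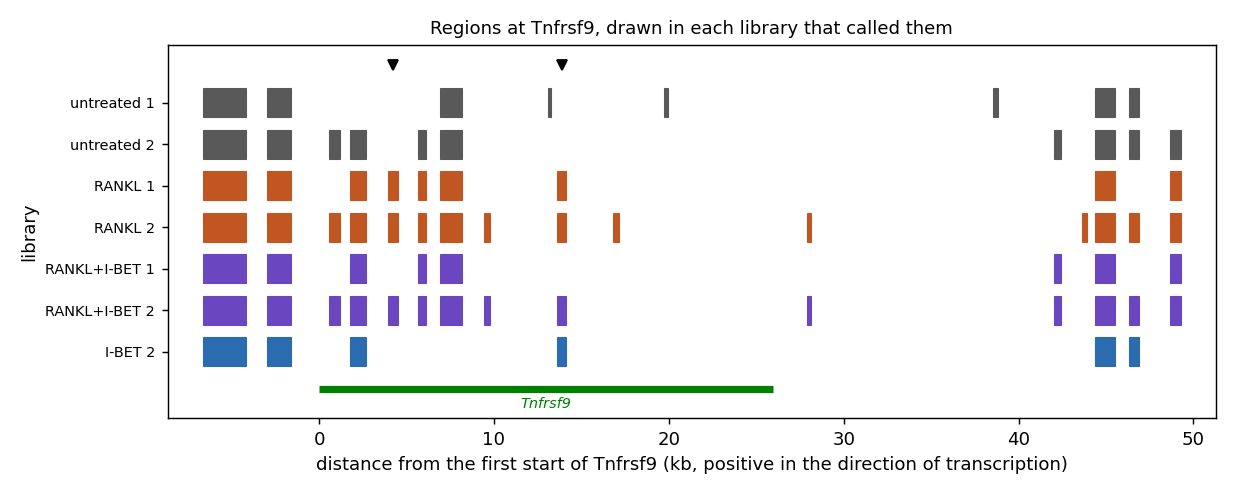
Regions at Tnfrsf9 by distance from its first start (horizontal axis, kb; the green bar is the gene), drawn in each library that called them (rows). Black triangles mark the 2 RANKL-only regions, which are drawn for RANKL 1, RANKL 2 and RANKL+I-BET 2, and for 1 of them also for I-BET 2.

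Tnfrsf8 and Tnfrsf1b supplied 3 RANKL-only regions. The Tnfrsf8 count of 2 was 1 with a -log10 q of at least 5. It was also 1 in lists of equal length and where peaks had to cover 50% of a region. At Tnfrsf8, chr4:145310826-145311355 inside the gene had a -log10 p of 3.99 and 2.9 with RANKL and 7.63 in RANKL+I-BET replicate 2. The other, chr4:145338154-145339050, lies 22990 bp upstream of the Tnfrsf8 start and was called in all 5 treated libraries, with values of 11.5 and 8.29 with RANKL, 4.21 and 46.4 with RANKL+I-BET and 2.99 with I-BET. At Tnfrsf1b, chr4:145249932-145250443, 3062 bp upstream of the start, was also called in all 5 treated libraries, with 5.16 and 9.19, 3.65 and 9.56, and 2.99.
Against these, 10 regions at Tnfrsf8 and 9 at Tnfrsf1b were called in all 7 libraries.

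Ligand genes held regions of the same kind. At Tnfsf4, chr1:161361571-161362156, outside the gene, was called in all 5 treated libraries, with a -log10 p of 26.1 and 9.19 with RANKL, 13.7 and 72.6 with RANKL+I-BET and 6.53 with I-BET. At Tnfsf18, chr1:161560344-161560844, 65687 bp downstream of the start, had 9.23 and 8.29, 8.87 and 28.3, and 5.57 in those libraries. With peaks limited to 50 kb from a gene the RANKL-only count at Tnfsf18 was 0. At Tnfsf8, chr4:63817542-63818109 had 3.44 and 4.99 with RANKL and 17.4 in RANKL+I-BET replicate 2. So 4 of the 11 regions, at Tnfsf4, Tnfsf18, Tnfrsf1b and Tnfrsf8, were called in all 5 treated libraries, I-BET alone included, as were 16.3% of the RANKL-only regions over all genes.

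**Figure D5:**
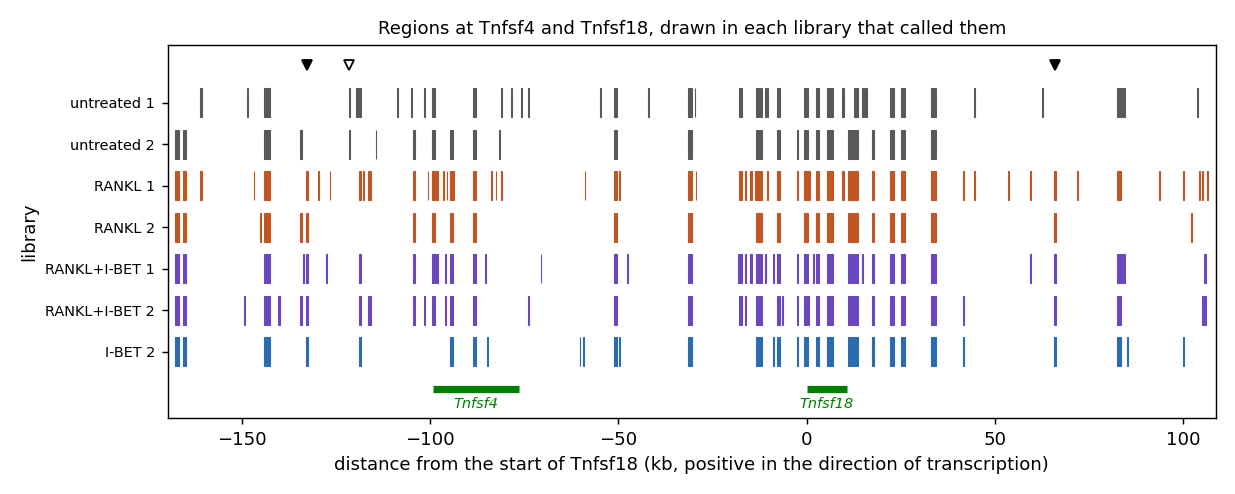
Regions at Tnfsf4 and Tnfsf18 by distance from the Tnfsf18 start (horizontal axis, kb; green bars are the genes), drawn in each library that called them (rows). Filled triangles mark the RANKL-only regions, each drawn for all 5 treated libraries, and the open triangle marks the region of both untreated libraries alone.

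The remaining RANKL-only regions were at Tnfrsf19, Tnfrsf13c and Tnfrsf17. The Tnfrsf19 region, chr14:61052153-61052621, 5298 bp upstream of a start, had a -log10 p of 4.56 and 8.29 with RANKL and 5.42 and 32.0 with RANKL+I-BET. It was the only member region called in all 4 libraries with RANKL and none of the 3 without (0.216% of 463, against 0.519%). With a -log10 q of at least 5 no RANKL-only region was left at Tnfrsf19 (0), nor any RANKL+I-BET-only region against untreated (2 with all peaks), and the latter count was also 0 where peaks had to cover 50% of a region. The Tnfrsf13c region, chr15:82224117-82225069, spans the start described above. At Tnfrsf17, a receptor of B lineage cells, chr16:11307075-11307440 was called in the RANKL libraries alone (6.43 and 4.26). Tnfrsf17 and Tnfsf8 too had 0 RANKL-only regions with a -log10 q of at least 5, and Tnfsf8 also had 0 in lists of equal length.

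Tnfsf4 and Tnfrsf17 each had 1 region called in both untreated and neither RANKL library. The Tnfsf4 region, chr1:161372999-161373373, had a -log10 p of 3.5 and 5.48 and was called nowhere else. The Tnfrsf17 region, chr16:11314922-11315669, 1113 bp into the gene from its start, had 4.82 and 7.16, and RANKL+I-BET replicate 2 (13.9) and the I-BET library (2.24) called it too.

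Adding I-BET to RANKL left most of these calls in 1 of the replicates. Of the 11 RANKL-only regions, RANKL+I-BET replicate 1 called 5 (39.7% of such regions over all genes) and replicate 2 called 10 (85.2%). I-BET alone called 6 (32.4%). Since the RANKL+I-BET replicates differed this much at members and at all genes, a loss of calls with the inhibitor could not be told from the spread between replicates.

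Both RANKL+I-BET and neither RANKL library called 6 of 358 member regions (1.68%, against 1.91%), and the reverse held for 1 (0.279%, against 0.567%). With 1 RANKL library left to decide for its group, both counts could only rise or stay. They were 15 and 18 without RANKL replicate 1 (9.04% and 10.8% of varying member regions, against 7.43% and 12.5% over all genes). Without RANKL replicate 2 they were 18 and 60 (8.53% and 28.4%, against 6.16% and 24.3%). Called in 1 library of each were 44 (12.3%, against 12.8%), and in all 4 libraries 121 (33.8%, against 27.7%). The 6 lay at Tnfsf4, Tnfsf18, Tnfsf8, Tnfrsf9, Tnfrsf13b and Tnfrsf19, 1 each. Those at Tnfsf4 (chr1:161398551-161398783), Tnfsf18 (chr1:161600146-161600712), Tnfrsf13b (chr11:61140210-61140391) and Tnfrsf19 (chr14:61083630-61084029) were called in no other library, with -log10 p from 2.95 to 5.88. The Tnfsf8 region, chr4:63902609-63903171, was also called in untreated replicate 2 and with I-BET. The single region of the reverse kind was the Tnfrsf17 region of the RANKL libraries alone.

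Both RANKL+I-BET and neither untreated library called 12 of 364 member regions (3.3%, against 3.69%), and the reverse held for 1 (0.275%, against 0.469%). Called in 1 library of each were 37 (10.2%, against 11.3%), and in all 4 libraries 85 (23.4%, against 18.6%). Without untreated replicate 2 the counts of 12 and 1 rose to 58 and 73, as 1 untreated library then decided for its group. These were 22.0% and 27.7% of varying member regions, against 15.6% and 29.6% over all genes. Besides regions already named, the 12 comprised chr1:161478186-161478606 at Tnfsf18, chr4:145220500-145221093 inside Tnfrsf1b and chr17:57170246-57170618 at Tnfsf14. The first and second were also called in RANKL replicate 1, and the last in RANKL replicate 2. The comparisons share their untreated or RANKL libraries and are not independent of each other.

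No member region was called in all 3 libraries with I-BET and none of the 4 without (0.148% over all genes), in all 4 without I-BET and none with (0.00764%), or in all 3 without RANKL and none with (0.0258%). In all, 22 regions at 11 members separated a pair of treatments (4.75% of 463, against 5.66% of regions at all genes), 8 inside genes and 14 outside, and 1 was within 1 kb of a mapped start. Their calls were of middling strength: a median of 56.1% of the list had a larger -log10 p, against 16.0% for member regions called in all 7 libraries. The other 19 members, among them Tnfsf11, Tnfrsf1a and Tnfrsf12a, had none.

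The same counts were made at 15 genes of the superfamily with other symbols. There, 6 of 164 regions were RANKL only against untreated (3.66%, against 3.3% over all genes) and 1 was untreated only (0.785% over all genes). For RANKL+I-BET, 2 of 152 regions were called in both libraries and in neither RANKL library (1.32%, against 1.91%), and 9 of 168 in both and in neither untreated library (5.36%, against 3.69%). Fasl, which encodes the ligand of the death receptor Fas, had 63 of the 214 regions at these genes, more than any other. It held 3 of the 6 RANKL-only and 5 of the 9 RANKL+I-BET-only regions. Fas itself held 2 of the 9. Starts of 7 of the 15 genes, among them Tnf, Ltb, Cd40 and Fas, were called in all 7 libraries (53.5% over all genes), and those of Cd40lg and Eda in none.

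Among 15 adaptors and signal transducers of the receptors, 14 starts were called in all 7 libraries, against 53.5% of starts over all genes. The exception was Traf1, called in both replicates numbered 1 of untreated and RANKL cells, in RANKL+I-BET replicate 2 and with I-BET. Of 249 regions at these genes 8 (3.21%, against 3.3%) were RANKL only and 3 untreated only (0.785% over all genes). Traf1 and Traf2 held 2 each of the former, and Traf3, a negative regulator of noncanonical NF-kappa B signalling, held all 3 of the latter. Traf3 also had the most regions of these genes, 49 of 317. Both RANKL+I-BET and neither RANKL library called 6 of 272 regions (2.21%, against 1.91%), with 1 the reverse (0.567% over all genes). Both RANKL+I-BET and neither untreated library called 5 of 265 (1.89%, against 3.69%), with 1 the reverse (0.469% over all genes). Tnfaip3, an inhibitor of NF-kappa B signalling, held 2 of those 5.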

How the data were processed

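ATAC-seq peak lists of 7 RAW264.7 libraries were used, 1 list per library. The submitters' processing notes name MACS2, Bowtie2, Picard, SAMtools, bedtools, cutadapt and FastQC with the build mm10; roles, versions and settings are not given in the sources used here. Each deposited line gives a peak's position, a score, a fold (a ratio over background) and -log10 values of p and q, all made by the authors. Peaks were called per library and not on pooled samples. No read counts were used, so depth is unknown.

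Overlapping or book-ended peaks were joined into regions, and 1 bp of a library's peaks in a region counted as a call. Peaks were assigned to 21887 protein-coding genes of a RefSeq table (GRCm38.p6), within 100 kb. Starts came from RefSeq promoter windows, which 23 of 30 members had. A list of regions or genes is described beside the same share over all genes, with no test. The one test was limma 3.58.1 (R 4.3.3, trend) on log2(peaks + 1), with Benjamini-Hochberg adjustment over all genes, 3 residual degrees of freedom and all 4 groups sharing 1 spread. It was tested on simulated data, as were the joining and assignment of peaks. Peaks with equal values were ordered at random when lists were shortened; this order was chosen after a first fit in position order had been seen.

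Members and gene lists were chosen with earlier results of these data known. Genes were named by a rule: members with a region that separates treatments, members with a start called in some libraries, the 4 with the most peaks, any past adjusted p 0.05, and always Tnfsf11, Tnfrsf11b, Tnfrsf1a and Tnfrsf1b. Of each other list at most 4 genes with the most such regions were named with counts. The patterns pooled over all RANKL or all I-BET libraries were added after seeing the data. The alternatives tried were stricter peaks, lists of equal or full length, a larger cover, other distances, another pseudocount, no filter, bases in place of peaks, a replicate block and leaving out libraries. Motifs were matched in Python 3.11.15. The check of 1 marker list is not reported here.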

Additional observations from a re-analysis of the deposited data

How the results depend on the processing

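No member passed an adjusted p of 0.05 under any alternative of the limma fit, and the range of that count over left-out libraries was 0 to 0. Of all genes, the fit called 1 (RANKL minus untreated) and 1 (RANKL+I-BET minus untreated) among peaks with a -log10 q of at least 5, 1 (I-BET minus untreated) within 50 kb, and 71, 36, 61 and 292 without a filter on low counts, in the order RANKL minus untreated, RANKL+I-BET minus RANKL, RANKL+I-BET minus untreated and I-BET minus untreated. Leaving out 1 library gave 0 to 361, 0 to 5, 0 to 354 and 0 to 371, and each count above 0 came from leaving out an untreated library. Ordering tied peaks by position, added after seeing the data, also called 0 genes, with 883, 339, 875 and 973 at an unadjusted p under 0.05.

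Region counts at members rest on few regions. Inside gene bodies alone they were 4 (RANKL only) and 1 (untreated only), 2 (RANKL+I-BET only) and 0 (RANKL only), and 3 (RANKL+I-BET only) and 0 (untreated only). Of varying member regions these were 3.81% and 0.952%, 2.35% and 0.0%, and 2.97% and 0.0%. Over all genes the shares were 3.91% and 1.04%, 2.62% and 0.78%, and 4.32% and 0.638%. With a -log10 q of at least 5 the untreated-only counts were 0 and 0 (0.195% and 0.00557% over all genes). The RANKL-only count against RANKL+I-BET was 0 (0.0178% over all genes), and the starts of 5 members were called in no library. In lists of equal length, RANKL+I-BET only against RANKL was 2 (1.23%, against 2.22%). Untreated only against RANKL+I-BET was 2 (0.889%, against 1.03%). Where peaks had to cover 50% of a region, both untreated-only counts were 0 (0.558% and 0.319% over all genes). RANKL+I-BET only against untreated was then 25 (8.06% of varying member regions, against 4.31% over all genes). That share was 8.39% against 5.12% with a -log10 q of at least 5. It was 4.3% against 4.54% with all peaks and any overlap. With 1 library deciding for its group, which must raise a count or leave it, the ranges were 13 to 77 and 3 to 75 (RANKL against untreated), 15 to 46 and 1 to 60 (RANKL+I-BET against RANKL) and 17 to 65 and 1 to 73 (RANKL+I-BET against untreated). The highest counts were 30.2% and 27.8%, 24.5% and 28.4%, and 27.5% and 27.7% of varying member regions. Over all genes these shares were 28.7% and 32.9%, 32.9% and 24.3%, and 33.2% and 29.6%. The log2 difference of Tnfsf8 reversed to -0.1 without untreated replicate 1, and that of Tnfsf12 to 0.16 (-log10 q of at least 5) and 0.25 (bases under peaks); the cause was not tested.

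The labels do not say that replicate numbers pair libraries. Deviations of same-numbered libraries correlated at 0.246, 0.29 and 0.329 over 16513 genes, which with 2 numbers does not establish a pairing. With the replicate block limma called 0 genes and 0 members. Among regions that differ within both numbered pairs, the RANKL-only and untreated-only shares were 50.0% and 9.09% (all genes 49.3% and 11.7%), RANKL+I-BET only and RANKL only 35.3% and 5.88% (29.4% and 8.72%), and RANKL+I-BET only and untreated only 54.5% and 4.55% (54.3% and 6.9%).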
